A study of Mus musculus with 6 samples.

Results

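The TAM receptors are 3 related receptor tyrosine kinases, TYRO3, AXL and MERTK, and they were described here together with the secreted proteins that link such receptors to dying cells. The members were the genes Mertk, Axl and Tyro3 for the receptors, Gas6 and Pros1 for their ligands GAS6 and protein S, and Mfge8 for MFG-E8, a bridging protein that binds integrins instead. They were chosen by gene symbol as a receptor and ligand family, with earlier results of these data known, and all 6 were found among the 21847 genes of the count table.

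A dying cell exposes the lipid phosphatidylserine on its outer surface. GAS6 and protein S bind that lipid through a domain carboxylated by a vitamin K-dependent enzyme, and with their other end they bind and activate TAM receptors on the phagocyte. GAS6 activates all of the TAM receptors, protein S mainly TYRO3 and MERTK, and MFG-E8 joins phosphatidylserine to integrins that contain the alpha-v chain. In macrophages, including those of the spleen, MERTK is best known for the clearance of apoptotic cells, and AXL for a receptor that rises in inflammation.

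The RNA came from mouse splenic cells kept for 3 days in co-culture with mesenchymal stromal cells (MSCs) of human cord tissue. These had first been labelled with Qtracker, a fluorescent nanocrystal dye, and seeded on fibronectin, and splenocytes depleted of T cells were then placed on them. The cells, labelled as macrophages, were sorted by Qtracker signal into a positive group, recorded as having engulfed MSCs, and a negative group, recorded as not having done so, with 3 libraries each (replicates 1, 2 and 3). The question of the design was how the RNA of the cells that took up MSCs differed from that of the cells that did not. Both groups came through the same co-culture, so neither is a resting control. The sort gate is given as CD11b+ with Ly6G- in one label and with Ly6C- in another. Strain, age and number of mice are not given, and nothing says that the replicates came from separate animals, so the p-values below reflect only how far these libraries differ among themselves, part of which may be technical.

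The promoters of Mertk, Axl and Gas6 are shown because these 3 genes reached the highest levels in the Qtracker positive libraries. Each sequence holds the 250 bases before the gene's RefSeq transcription start on mouse build GRCm38.p6, written 5′ to 3′ on the gene's own strand. Capitals mark GC boxes, the letters GGGCGG on either strand, which are a motif of SP/KLF-family factors.
Mertk upstream window, chr2:128698665-128698914, plus strand: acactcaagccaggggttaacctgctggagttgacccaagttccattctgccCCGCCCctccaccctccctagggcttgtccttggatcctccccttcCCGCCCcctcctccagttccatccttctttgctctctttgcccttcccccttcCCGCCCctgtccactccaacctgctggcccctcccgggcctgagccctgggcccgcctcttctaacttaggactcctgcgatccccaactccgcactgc
Axl upstream window, chr7:25788734-25788983, minus strand: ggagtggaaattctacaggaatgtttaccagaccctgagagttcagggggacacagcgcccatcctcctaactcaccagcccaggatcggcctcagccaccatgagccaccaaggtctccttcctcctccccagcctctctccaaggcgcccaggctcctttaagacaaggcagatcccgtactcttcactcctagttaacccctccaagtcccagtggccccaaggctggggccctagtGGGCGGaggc
Gas6 upstream window, chr8:13494536-13494785, minus strand: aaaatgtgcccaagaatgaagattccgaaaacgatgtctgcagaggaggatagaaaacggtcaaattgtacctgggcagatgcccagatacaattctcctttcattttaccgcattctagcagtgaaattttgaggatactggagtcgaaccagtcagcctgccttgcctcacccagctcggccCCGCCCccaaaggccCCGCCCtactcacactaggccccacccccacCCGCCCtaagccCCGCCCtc
The Mertk window held 3 GC boxes, the Axl window 1 and the Gas6 window 4. A GC box was found in 6 of 6 members, and in 32.7% of the 32851 RefSeq promoter windows of the same length. The member windows had a GC content of 54.8% for Gas6 to 73.2% for Tyro3, against a median of 52.4% over all windows. None of the 6 windows held the nuclear receptor half-site AGGTCA (14% of all windows), the E-box CACGTG (6.02%), the AP-1 motif TGANTCA (6.75%), the core of the interferon-stimulated response element (2.98%) or the TATA box TATAAA (12.4%). The ETS-type motif GAGGAAG, present in 10.6% of all windows, occurred in 1 member, Axl. Both strands were searched, the GAGGAAG match of Axl did not overlap its GC box, and a match is a description of the letters and not a bound site. A missing match says only that these letters were not in this window.

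Library totals ran from 33943090 to 55506993 counts. Replicates 2 and 3 lay close together in both groups, over 4121 genes with a mean of 500 to 2000 counts. Their variance was 1.59 (negative) and 3.73 times (positive) that of counting, with a median absolute log2 difference of 0.0549 and 0.0855. Replicate 1 stood apart from both, with a variance 37.1 to 92.7 times that of counting and a median absolute log2 difference of 0.286 to 0.454. The sorted cells held RNA of several cell types. Summed macrophage markers (7 genes) were at 2168 to 15926 CPM (a gene's counts as a part of its library's scaled total) in the negative and 26653 to 34722 CPM in the positive libraries. Neutrophil markers (10 genes) were at 3185 to 65370 against 1302 to 1914 CPM and B cell markers (6 genes) at 6968 to 17040 against 670 to 746 CPM, and negative replicate 1 held the lowest macrophage, lowest neutrophil and highest B cell sum of its group. Of the 7 macrophage markers 2 were higher and 1 lower in the positive group, of 10 neutrophil markers 8 were lower, and all 6 B cell markers were lower. The lower macrophage marker was Ptprc, which is not particular to macrophages. Lyz2, not called, made up most of the macrophage sum in every library but negative replicate 1. Mmp8, also not called, was the largest neutrophil marker in the positive replicates, at 1004, 693.5 and 783 CPM. These sums therefore follow a few genes. T cell, NK cell and dendritic cell markers were also lower in 5 of 6, 5 of 6 and 3 of 3 tested genes. Eosinophil markers summed to 32.1 to 55 CPM in the negative and 79.5 to 309 CPM in the positive libraries. Of these 5 markers, 2 were higher (Epx and Prg2), and they made up most of each positive sum. The other markers went the other way: 2 were lower, Siglecf and Ccr3, with log2 fold changes of -2.77 and -2.95, and Il5ra at -6.05 was not called. Ly6g was at 0 CPM in positive replicate 2. The part of this cell composition in the results below was not tested, and in bulk RNA fewer cells of a type and less RNA per cell cannot be told apart. Mesenchymal stromal markers (10 of 11 listed genes found) summed to 2.59 to 5.24 CPM in the negative and 3.06 to 3.83 CPM in the positive libraries, with no marker called. These are counts of the mouse genes, while the MSCs were human. Of these markers, Col6a1 was at 0 in 5 of the 6 libraries and Pdgfra in 4.

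Of the 6 members, 5 were higher in the Qtracker positive cells and 1, Tyro3, was lower. Gas6 had the largest change, about 43-fold between group means, followed by Mertk and Axl, and then Pros1 and Mfge8. By edgeR's quasi-likelihood test with the replicate number as a block, 5091 of the 14605 genes tested, 34.9%, had a Benjamini-Hochberg adjusted p under 0.05, 18.5% as higher and 16.3% as lower. A call of some kind was therefore common among all genes. The median log2 fold change of the members was 2.92, against -0.01 over all genes tested. No member had overlapping groups, that is, the highest library of the lower group was below the lowest library of the other. The share of all tested genes with groups apart was not counted, so this does not set the members apart from other genes.

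Mertk (ENSMUSG00000014361, chr2:128698956-128802894, plus strand, on build mm10), the receptor for apoptotic cell uptake, was at 3.53, 21.5 and 19.9 CPM in negative replicates 1, 2 and 3. It was at 161, 278.5 and 284 CPM in positive replicates 1, 2 and 3. Replicate 1 was the lowest of its group on both sides, most of all on the negative side, and even the lowest positive library was far above the highest negative one. The group means were 15 ± 9.96 and 241 ± 69.3 CPM (SD, n = 3), and the fitted log2 fold change was 4.32 ± 0.50 (SE, adjusted p = 0.0143). Within the numbered pairs the log2 difference was 5.50, 3.69 and 3.83, so pair 1 gave the widest gap. Mertk ranked 127 from the highest fold change of the 14605 genes. The annotation places the antisense gene Gm14011 across part of Mertk, and the sources used here do not say whether reads were counted by strand.

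Axl (ENSMUSG00000002602, chr7:25757273-25788705, minus strand), the TAM receptor with GAS6 as its ligand, followed the same pattern from a higher start. Its level was 9.95, 62.3 and 59.6 CPM in the negative replicates and 172, 415 and 391 CPM in the positive ones. Again replicate 1 was the lowest library of each group and the groups stood clear of each other. The means were 43.9 ± 29.5 and 326 ± 134 CPM (SD, n = 3), with a log2 fold change of 3.18 ± 0.39 (SE, adjusted p = 0.0151). The pair differences were 4.11, 2.73 and 2.71.

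Tyro3 (ENSMUSG00000027298, chr2:119797733-119818104, plus strand), the TAM receptor best known from the nervous system, was barely detected in any library and moved the other way. It had 53, 16 and 18 counts in the negative replicates and 6, 3 and 5 counts in the positive replicates, or 1.22, 0.36, 0.39 CPM and 0.16, 0.06, 0.11 CPM. Negative replicate 1, the library with the highest B cell and T cell sums, was the highest, and all positive libraries were lower than all negative ones. The fitted log2 fold change was -2.43 ± 0.46 (SE, adjusted p = 0.0297). The positive to negative ratio was 0.131 in pair 1 (exact 95% interval 0.0458 to 0.303), 0.171 in pair 2 (0.0318 to 0.596) and 0.273 in pair 3 (0.0793 to 0.763), and these intervals cover counting error only. Tyro3 was the 1 member with fewer than 10 counts in some library, and it passed the filter on low counts only through the negative group, where it was higher, so its passing gives no support to the difference. The call was lost in the authors' normalized values, where Tyro3 was at 191, 20.5 and 7.64 in the negative and 3.38, 1.20 and 11.4 in the positive replicates, so that pair 3 reversed (limma adjusted p = 0.173).

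**Figure D1:**
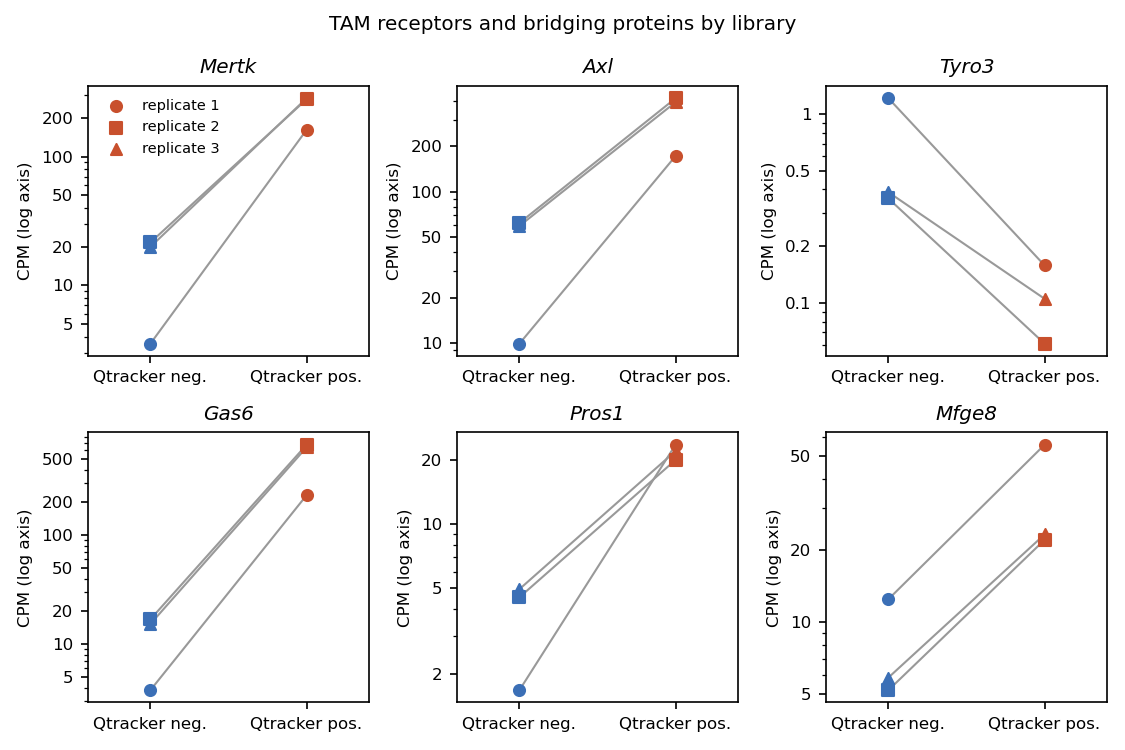
Level of each member in the 6 libraries, as CPM on log axes that differ between panels; symbols mark replicates 1 to 3, grey lines join the libraries with the same replicate number, blue is Qtracker negative and orange Qtracker positive. All lines rise except those of Tyro3, and negative replicate 1 is lowest for Mertk, Axl, Gas6 and Pros1 but highest for Tyro3 and Mfge8.

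Gas6 (ENSMUSG00000031451, chr8:13465374-13494490, minus strand) encodes the ligand of all TAM receptors and had the largest change of the members. It was at 3.78, 16.9 and 15.3 CPM in the negative replicates and at 232.5, 676 and 641 CPM in the positive ones. Every positive library was more than 10 times above every negative library, although replicate 1 was the lowest of each group. The means were 12 ± 7.16 and 516 ± 246.5 CPM (SD, n = 3), with a log2 fold change of 5.55 ± 0.23 (SE, adjusted p = 0.00585), and Gas6 ranked 51 of 14605 from the highest. The pair differences of 5.93, 5.32 and 5.38 were close to each other. The 3′ end of Gas6 overlaps Tmem255b on the opposite strand.

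Pros1 (ENSMUSG00000022912, chr16:62854307-62929346, plus strand) encodes protein S, which also serves as an anticoagulant cofactor in plasma. It was at 1.67, 4.55 and 4.96 CPM in the negative replicates and at 23.5, 19.9 and 22.0 CPM in the positive ones. The positive libraries were nearly level, and the spread lay in the negative group, where replicate 1 was lowest. The means were 3.73 ± 1.79 and 21.8 ± 1.77 CPM (SD, n = 3), with a log2 fold change of 2.67 ± 0.45 (SE, adjusted p = 0.0245). Pair 1 differed by 3.78 and pairs 2 and 3 by 2.12 and 2.14, so the size of the rise rested in part on replicate 1.

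Mfge8 (ENSMUSG00000030605, chr7:79133768-79149060, minus strand), the integrin bridge, had the steadiest rise. It was at 12.5, 5.20 and 5.87 CPM in the negative replicates and at 55.5, 22.2 and 23.3 CPM in the positive ones. Unlike Mertk, Axl, Gas6 and Pros1 on the negative side, it was highest in replicate 1, and this held in both groups. The means were 7.85 ± 4.04 and 33.7 ± 18.9 CPM (SD, n = 3), with a log2 fold change of 2.08 ± 0.12 (SE, adjusted p = 0.00657). The pair differences were 2.15, 2.08 and 1.99, the narrowest range of the 6 members.

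The calls depended on which replicates entered. Without replicate 1, 72.9% of all genes were called and all 6 members kept their calls and directions. Without replicate 2, 2.1% of genes were called, and Gas6 was the only member still called (adjusted p = 0.0456), with adjusted p of 0.0519 for Mertk, 0.0563 for Mfge8, 0.0586 for Axl, 0.0705 for Pros1 and 0.172 for Tyro3. Without replicate 3, edgeR called 0 genes, 0% of those tested, with 4209 at an unadjusted p under 0.05, and no member was called (Gas6 adjusted p = 0.0514). In that setting, of 14803 genes tested, DESeq2 called 1477 higher and 1749 lower and limma-voom 548 and 619, alternatives chosen after the data were seen. Without replicate 2, of 14831 genes tested, DESeq2 called 1513 higher and 1781 lower and limma-voom 732 and 893. Of the members, DESeq2 called all but Tyro3 without replicate 2 or without replicate 3, and limma-voom did so without replicate 2 but also lost Pros1 without replicate 3. With replicates 2 and 3 summed into 1 library a group, edgeR called 0 genes, with 4488 at an unadjusted p under 0.05, and no member, with adjusted p of 0.0502 for Gas6, 0.0584 for Mertk and 0.0602 for Mfge8. The direction of each member was the same in every setting that tested it.

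**Figure D2:**
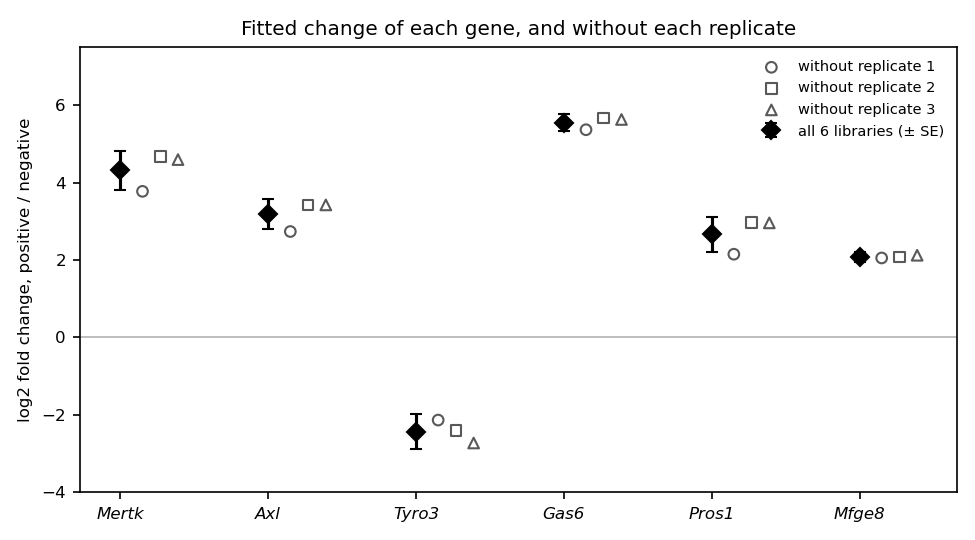
Fitted log2 fold change (Qtracker positive over negative) of each member: filled diamonds with SE bars use all 6 libraries, and open symbols leave out 1 replicate pair each. Tyro3 is the only member below 0 in every fit, and Mertk, Axl and Pros1 have smaller changes without replicate 1.

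Levels can be compared between genes once each CPM is divided by the gene's exon length in kilobases (CPM per kb). In the negative group the order of mean CPM per kb was Axl at 8.73, Gas6 at 4.71, Mertk at 3.46, Mfge8 at 1.67, Pros1 at 0.912 and Tyro3 at 0.105. Neighbours in that order overlapped between libraries except for Tyro3, which was below Pros1 in every comparison of libraries. In the positive group Gas6 led at 203 CPM per kb, above 98.1% of genes, followed by Axl at 64.8, Mertk at 55.6, Mfge8 at 7.17, Pros1 at 5.33 and Tyro3 at 0.0175. There the ranges of Axl and Mertk overlapped, as did those of Mfge8 and Pros1, and the other neighbours were apart. The value of Mfge8 depends on the length used, with means of 3.37 and 14.4 CPM per kb when only its longest transcript is counted.

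The make-up of the receptor pool and of the bridging pool differed between the groups. Among the 3 receptors, Mertk made up 27.3%, 28.5% and 27.9% of the summed CPM per kb in the negative replicates and 52%, 43.8% and 45.7% in the positive ones. Axl made up 66.2%, 71.1% and 71.8% and then 47.9%, 56.2% and 54.3%. The receptor pool thus held more Axl than Mertk in the negative libraries and near-equal parts in the positive ones, with no overlap for either gene. Among the bridging proteins, Gas6 made up 32.6%, 74.9% and 70.9% in the negative replicates and 83.9%, 96.5% and 96% in the positive ones. Mfge8 had been the major one in negative replicate 1, at 58.4%, and was at 10.9%, 1.72% and 1.9% in the positive replicates. These pools count RNA, not protein, and do not include proteins in serum or from the MSCs.

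Ratios within a library rest on the same counts as these shares, but with the prior count of 2 that log2 CPM adds to each count. Apart from that prior count they do not depend on how the library was scaled. The log2 ratio of Axl to Mertk averaged 1.32 in the negative and 0.16 in the positive group, a difference of -1.15. The ratio of Tyro3 to Mertk differed by -6.37, by -5.49 without replicate 1 and by -6.67 with a prior count of 0.5. It rests on 3 to 6 Tyro3 counts in each positive library. The ratio of Pros1 to Gas6 differed by -2.86 and that of Mfge8 to Gas6 by -3.47. In each of the 4 ratios the groups did not overlap, and the exact two-sided permutation test gave p = 0.1 (adjusted p = 0.1 over the 4), the smallest that this test, which does not use the pairs, can give for 3 against 3 libraries. Within the pairs the Axl to Mertk ratio differed by -1.39, -0.96 and -1.12.

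**Figure D3:**
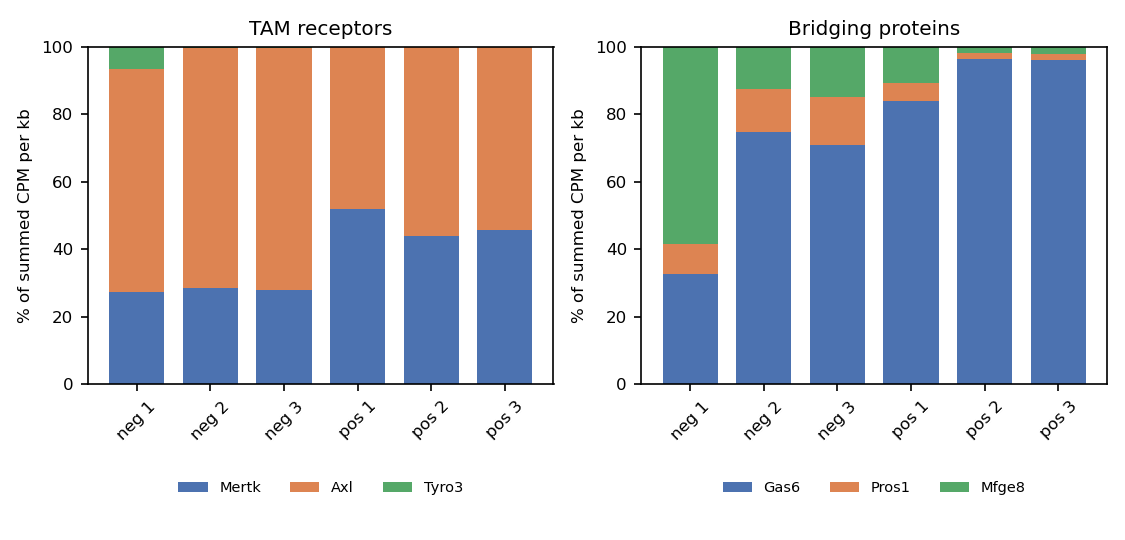
Share of each receptor (left) and of each bridging gene (right) in the summed CPM per kb of its set, in percent, for negative (neg) and positive (pos) replicates 1 to 3. The Mertk share runs from 27.3% to 28.5% in the negative and from 43.8% to 52% in the positive libraries, and Gas6 fills 83.9% to 96.5% of the bridging set in the positive ones.

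Because the summed macrophage markers differed between libraries, each member was also set against 3 macrophage genes of the same library, Adgre1 (F4/80), Csf1r and Fcgr1, as the difference of log2 CPM. Adgre1 was itself called higher, at 2.53 ± 0.21, while Csf1r at 2.19 ± 0.68 and Fcgr1 at 2.60 ± 0.76 did not pass (adjusted p = 0.0753 and 0.0678). On this scale Mertk was at -3.50, -3.46 and -3.54 in the negative replicates and -1.80, -1.56 and -1.57 in the positive ones. The negative libraries, which had differed about 6-fold in Mertk CPM, were level here, and the groups stayed apart by 1.86. That levelness holds for the mean of 3 genes that spread unequally over the negative replicates. Adgre1 was at 90.9, 196 and 190 CPM there, Csf1r at 61.5, 767 and 739 CPM, and Fcgr1 at 11.8, 88.7 and 89.9 CPM. Axl was at -2.02, -1.93 and -1.97 and then -1.70, -0.99 and -1.11, a difference of 0.70. Axl was thus as level as Mertk on the negative side, with a smaller gap to the positive side.

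The other members split on this scale. Gas6 was higher by 3.06 and Tyro3 lower, at -4.51, both without overlap. The Tyro3 value, which rests on few counts, was -3.55 without replicate 1 and -5.08 without replicate 3. For Mertk, Axl, Gas6 and Tyro3 the exact two-sided permutation test gave p = 0.1, or 0.15 adjusted over the 6 members. Pros1 differed by 0.20 with overlapping groups (exact permutation p = 0.6, adjusted 0.72), and Mfge8 by -0.41 with overlapping groups (exact permutation p = 1, adjusted 1). These differences depended on the reference. Against Cd68 alone, Mertk differed by 0.15 and Gas6 by 1.35, while Axl at -1.01 and Pros1 at -1.51 turned negative. Against Ptprc, the pan-leukocyte gene for CD45, which was itself lower in the positive group, Mertk differed by 5.47, Axl by 4.32, Gas6 by 6.67 and Mfge8 by 3.20. Only Gas6, Mertk and Tyro3 kept their direction under all 3 references, and a kept direction did not mean that the groups were apart. Against Cd68, positive replicate 1 lay below negative replicate 2 for both Mertk and Gas6. Against Ptprc, Tyro3 differed by -0.90, and its positive replicate 1 lay above its negative replicate 2.

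**Figure D4:**
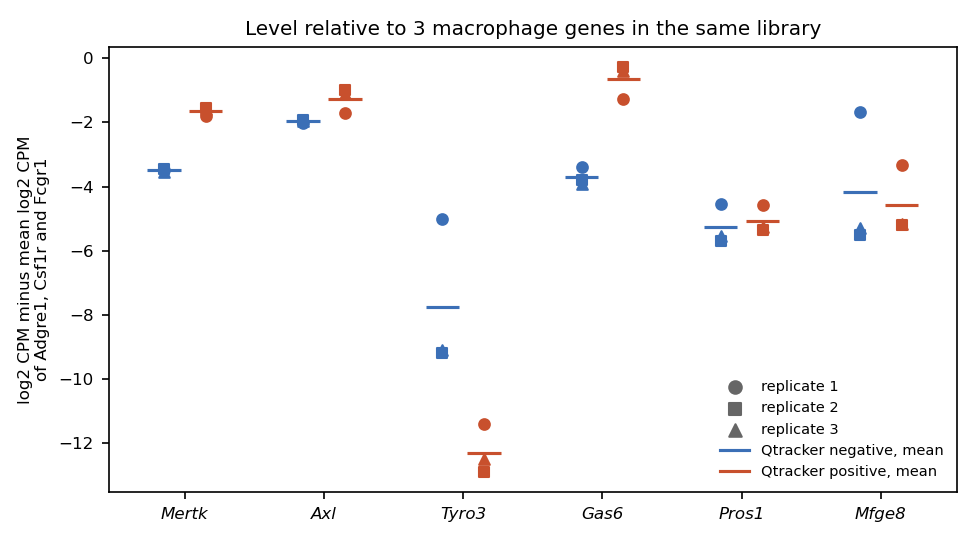
Log2 CPM of each member minus the mean log2 CPM of Adgre1, Csf1r and Fcgr1 in the same library; points are libraries (symbols for replicates), horizontal bars group means, blue Qtracker negative and orange positive. Mertk, Axl and Gas6 lie higher and Tyro3 lower in the positive libraries, and the groups overlap for Pros1 and Mfge8.

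Genes that act with the TAM receptors were taken from 7 lists with 34 genes. Of the 27 that could be tested, 11 were higher in the positive group, 3 lower and 13 not called, against 18.5% higher and 16.3% lower among all genes tested. The median log2 fold change was 0.90, against -0.01 over all genes. The rises included nuclear receptors and the interferon receptor chains, and the falls included the integrin chain Itgb3 and the phosphatidylserine receptor Havcr1. Some misses were close: of the uncalled genes named below, Ggcx, Lgals3, Adam10, Itgb5, Edil3 and Rxrb all passed with DESeq2 and without replicate 1. Passing was common in both settings. DESeq2 called 3421 genes higher and 3665 lower of 14605, and without replicate 1 edgeR called 72.9% of all genes.

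Among the genes of vitamin K-dependent carboxylation, which makes GAS6 and protein S able to bind phosphatidylserine, 1 of 3 was called. Among all genes tested, 34.9% were called. Vkorc1, the vitamin K epoxide reductase, was higher by 1.11 ± 0.14 on the log2 scale (SE, adjusted p = 0.0163), a call that was lost in the authors' normalized values. Ggcx, the carboxylase itself, had 0.60 ± 0.17 (adjusted p = 0.0642). Vkorc1l1 was not called, at -0.21 ± 0.43 (adjusted p = 0.725), with pair differences of 0.91, -0.71 and -0.79. Of the other reported TAM ligands, Lgals3, or galectin-3, had the highest level, at 132, 571 and 585 CPM in the negative and 3456, 2454 and 2418 CPM in the positive replicates. Its groups did not overlap, but with a log2 fold change of 2.90 ± 0.73 it did not pass the test (adjusted p = 0.0514). It passed with no replicate block (adjusted p = 0.0156), with limma-voom (0.0323), in the authors' normalized values (0.0342), with upper quartile scaling (0.0491) and with library totals (0.0494), but not without replicate 2 or 3 (0.118 and 0.122). Pair 1 differed by 4.71 against 2.10 and 2.05 in the others. Tub and Tulp1 were too low to test.

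Among genes of receptor shedding, in which proteases cut MERTK and AXL from the cell surface, 1 of 5 was higher and 1 lower, a share close to the 34.9% called among all genes. Adam17, the main protease for MERTK, rose by 1.24 ± 0.14 (SE, adjusted p = 0.0138), from 116 ± 36.5 to 269 ± 58.7 CPM (SD, n = 3). Rhbdf1, a rhomboid-like partner of that protease, fell by 1.66 from 7.35 ± 4.60 to 2.08 ± 0.24 CPM (adjusted p = 0.0385). Rhbdf2, on the same list, had a higher level, at 125 ± 10.9 CPM in the negative and 149 ± 24 CPM in the positive group. It was not called, at 0.25 ± 0.18 (adjusted p = 0.343). Adam10, which can also cut AXL, had 0.61 ± 0.18 (adjusted p = 0.0739). Against these, the RNA of the receptors themselves rose by 4.32 for Mertk and 3.18 for Axl on the same log2 scale.

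The integrin chains that receive MFG-E8 moved in opposite directions. Itgav, the alpha-v chain, rose by 2.02 ± 0.12 (SE, adjusted p = 0.00683), close in size to the 2.08 of Mfge8. Its partner Itgb3 was at 17.0, 31.9 and 33.4 CPM in the negative and 5.55, 1.81 and 1.67 CPM in the positive replicates. The groups were apart, and the log2 fold change was -3.39 ± 0.73 (adjusted p = 0.0379), or -4.22 without replicate 1. The other partner, Itgb5, was at 25.1, 187 and 179 CPM in the negative and 407, 599.7 and 600.2 CPM in the positive replicates. Its log2 fold change of 2.45 ± 0.62 missed the threshold (adjusted p = 0.0516), although its groups did not overlap. It passed with limma-voom (adjusted p = 0.0344) and with upper quartile scaling (0.0493). Edil3, a paralog of Mfge8, stayed under 1 CPM in every library, with 1.72 ± 0.44 (adjusted p = 0.0536, or 0.0347 with no replicate block).

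Of the nuclear receptors, some of which are known to raise Mertk when macrophages take in lipid from engulfed cells, 4 of 6 were higher and none lower, with 18.5% of all genes higher. Nr1h3, or LXR-alpha, was at 1.28, 1.01 and 1.25 CPM in the negative and 16.7, 19.4 and 18.3 CPM in the positive replicates. All positive libraries were more than 10-fold above all negative ones, and the log2 fold change was 3.94 ± 0.20 (SE, adjusted p = 0.0063). Rxra, its dimer partner, rose by 3.84 ± 0.23 from 22.2 ± 9.26 to 300 ± 61.4 CPM (adjusted p = 0.00683). Pparg was at 0.14, 0.40 and 0.80 CPM in the negative and 10.3, 6.68 and 4.99 CPM in the positive replicates. Its counts were 6, 18 and 37 in the negative and 390, 328 and 236 in the positive replicates. It thus passed the filter on low counts only with help from the group where it was higher, which gives no support to the difference. Pparg rose by 4.16 ± 0.85 (adjusted p = 0.0344), with pair differences of 5.83, 3.91 and 2.58. The fitted value was 3.31 without replicate 1 and 5.04 without replicate 3. Ppard rose by 1.10 ± 0.17 (adjusted p = 0.0208). The second LXR, Nr1h2, and Rxrb were not called, with adjusted p = 0.0631 for Rxrb at -0.56 ± 0.16 (0.0257 with no replicate block).

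Interferon receptor signalling is known to be drawn into TAM feedback, and 3 of the 5 tested genes of that list were higher, in a table where 18.5% of all genes were. Ifnar1 rose by 1.20 ± 0.12 and Ifnar2 by 1.38 ± 0.32 (SE, adjusted p = 0.0117 and 0.0439). Socs3, a cytokine signalling inhibitor that TAM receptors can induce, rose by 0.90 ± 0.20 (adjusted p = 0.0414), a call that was lost when libraries were scaled by their totals alone. Socs1, the other inhibitor, was at -0.01 ± 0.15 (adjusted p = 0.969), with replicate 1 the highest library of each group. Twist1 and Twist2 had no values to use.

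Other phosphatidylserine receptors went separate ways. Stab1, or stabilin-1, rose by 3.95 ± 0.54 (SE, adjusted p = 0.0178), from 59.7, 321 and 296 CPM in the negative to 2187, 3259 and 3077 CPM in the positive replicates. Havcr1, or TIM-1, fell by 3.91 from 2.36, 0.92 and 1.25 CPM to 0.11, 0.04 and 0.15 CPM (adjusted p = 0.0167). Like Tyro3 it was low, with 103, 41 and 58 counts in the negative and 4, 2 and 7 in the positive replicates. It thus passed the filter only through the group where it was higher, which gives no support to the difference, and it was not tested under a filter of 50 counts in 3 libraries. Of the 14 genes of the 7 lists that were called, 2, Nr1h3 and Rxra, were still called without replicate 2 and 0 without replicate 3 by edgeR.

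**Figure D5:**
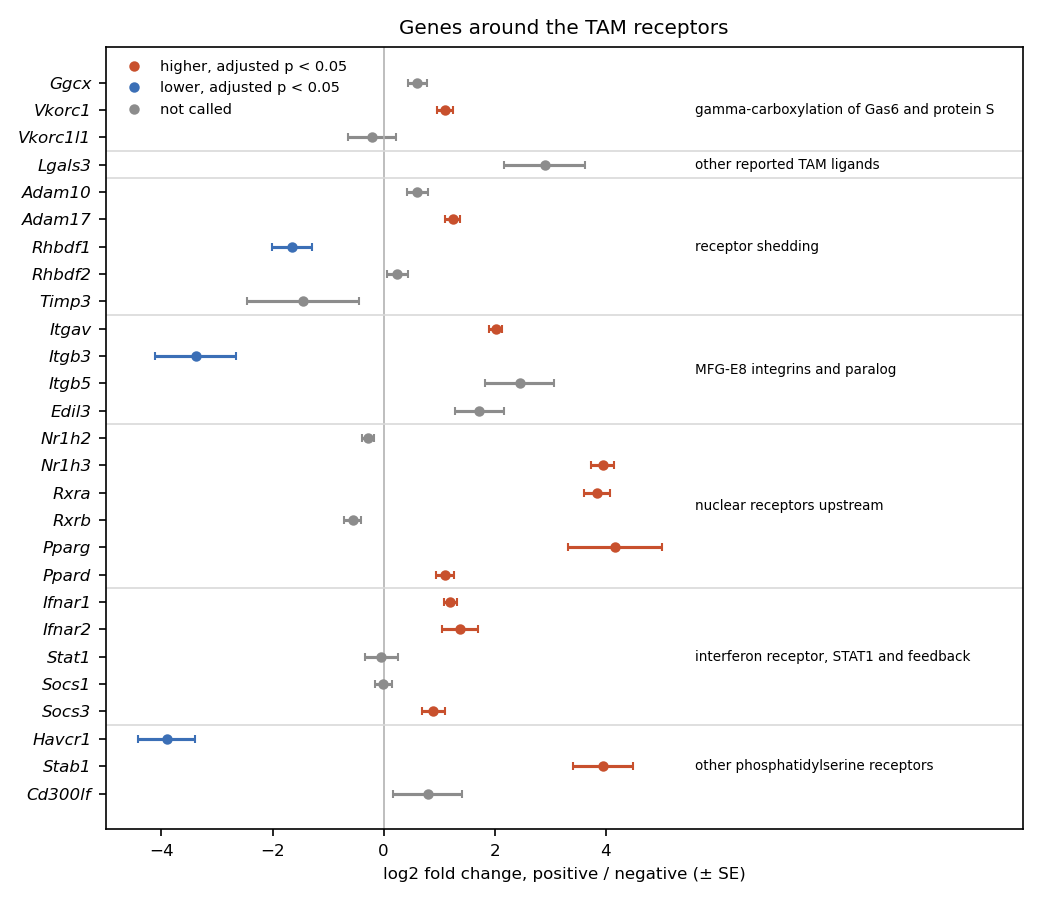
Fitted log2 fold change (positive over negative, bars are SE) of the 27 tested genes around the TAM receptors, grouped by list; orange genes were higher and blue genes lower at an adjusted p under 0.05, grey were not called. The nuclear receptors Nr1h3, Rxra and Pparg and stabilin-1 (Stab1) reach 3.84 to 4.16, and Itgb3 and Havcr1 lie below -3.

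The genes nearest to each member were found from the root mean square difference of log2 CPM, each gene centred on its own mean over the 6 libraries, so that a value of 0 would mean the same profile. Over 8580 candidate genes, those nearest to Mertk were the complement genes C1qb at 0.0913 and C1qa at 0.165, and then Sash1 at 0.209. Nearest to Axl were Frmd4b at 0.0884, the transcription factor gene Maf at 0.0917 and Aif1, which encodes the macrophage protein IBA1, at 0.101. Mertk and Axl themselves differed by 0.595. Gas6 had Ednrb, an endothelin receptor gene, at 0.209 and then Itga9 at 0.482 and Epb41l3 at 0.534, while Mertk was the 8th nearest to it at 0.664. Rank by rank, the nearest genes lay farther from Gas6 than from Mertk or Axl.

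Pros1 lay nearest to Anxa5, the gene of the phosphatidylserine-binding annexin A5, at 0.0986, followed by Pkd2 at 0.122 and Fam234a at 0.134. Mfge8 lay nearest to Cd274, the gene of PD-L1, at 0.123, then to Mif at 0.152 and to Pvr at 0.181. Tyro3 lay nearest to Ppp3cc at 0.154, Rasgrp1 at 0.169 and Itpr3 at 0.173 among 8581 candidates. Rasgrp1, a gene known from lymphocyte signalling, had a mean level of 84.4 CPM in the negative and 16.6 CPM in the positive group, and the B cell sum was also lower in the positive group. The part of lymphocyte RNA in the Tyro3 difference was not tested. All of these likenesses rest on 6 libraries that share the same pairs and scaling, so they carry no test.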

How the data were processed

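RNA was measured in 6 libraries of sorted mouse cells, prepared with a stranded kit per the labels' protocols. The authors deposited expected counts, per gene and as whole numbers, and a normalized signal. Per the submitters' processing notes, FastQC and Salmon were used with build mm10. Tool versions, the annotation release, the use of strand and any removal of human reads were not given in the sources used here. Values of the deposited signal are the count multiplied by gene- and library-specific factors, with no formula stated, and were used only as an alternative (log2 with a pseudocount of 1). GENCODE M21 coordinates were matched to 21625 identifiers.

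Counts were filtered with filterByExpr (minimum count 10, total 15), scaled by TMM and tested with edgeR 4.0.16 (glmQLFit, glmQLFTest) in R 4.3.3, with the replicate number as a block and p-values adjusted over all genes. Standard errors came from the F statistic. CPM use TMM-scaled totals, and log2 CPM a prior count of 2. DESeq2 1.42.0 and limma 3.58.1 (voom) were alternatives, beside other scalings, filters, no block, leaving out each replicate in turn and summing replicates 2 and 3. Figures used matplotlib 3.10.9. The pipeline was tested on simulated data.

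The pairing comes from the series' design text. Deviations of same-numbered libraries correlated at 0.198, 0.0769 and 0.158, and those of other numbers at up to 0.147. The members and lists were chosen with earlier results of these data known. Named genes were the members, every called gene of the 7 lists with up to 2 uncalled examples a list, and the 3 nearest genes of each member with mean log2 CPM of at least 3. Outside that rule, Nr1h2, Rhbdf2, Lyz2, Mmp8, Epx, Prg2, Siglecf, Ccr3, Il5ra, Col6a1 and Pdgfra were picked with their values in view. Ratios used an exact permutation test, whose smallest p for 3 against 3 is 0.1.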

Additional observations from a re-analysis of the deposited data

How the results depend on the processing

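The members kept 5 higher and 1 lower under the other scalings, no filter, DESeq2 and limma-voom. Calls were common among all genes there too. Of 14605 genes tested, DESeq2 called 3421 higher and 3665 lower, and limma-voom 3013 and 2845. The other scalings called 1572 to 2540 higher and 2479 to 3316 lower. With no filter, 2492 of 21847 genes were higher and 2010 lower. With no replicate block the count was also 5 and 1, and the block changed no member's call. Under a 50-count filter, the authors' values, or DESeq2 or limma-voom without replicate 2 or 3, 0 members were called lower. Leaving out each replicate gave 0 to 5 members higher and 0 to 1 lower. It gave 0 to 5538 genes higher and 0 to 5352 lower, against 2707 and 2384. With replicates 2 and 3 summed, 0 genes and 0 members were called in either direction by edgeR, with 4488 genes at an unadjusted p under 0.05. Scaling by library totals alone gave 1572 genes higher (32.2% of calls against 53.2%) and moved the median of all genes from -0.01 to -0.36. DESeq2 called 3665 genes lower. Without replicate 2, DESeq2 called 1513 genes higher, and limma-voom 732 higher and 893 lower. Without replicate 3, DESeq2 called 1477 higher, and limma-voom 548 higher and 619 lower. The cause of these shifts was not tested.

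Uncalled genes changed sign. Socs1, at -0.01, was 0.0316 with no filter, 0.0325 with limma-voom, 0.0825 with no replicate block, 0.0637 with replicates 2 and 3 summed, and -0.10 to 0.12 with each replicate left out. Col1a1, at -0.10, was 0.36 with replicates 2 and 3 summed and -0.84 to 0.40 with each replicate left out. Col1a2, at 0.64, was -0.0023 in the authors' values. Itgam, at 0.79, was -0.28 to 1.56 with each replicate left out. Relative to macrophage genes, Axl was -1.01 and Pros1 -1.51 against Cd68, and Mfge8 was 3.20 against Ptprc and -0.76 to 0.21 with each replicate left out. Tyro3 had the fewest counts of the members, 3 to 53 a library.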
